A study of Mus musculus with 18 samples.

Results

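The constitutive androstane receptor CAR (Nr1i3), the pregnane X receptor PXR (Nr1i2) and 8 genes that depend on them or serve the same enzymes were followed in mouse liver RNA. The genes were chosen by name, as the receptor genes, 3 Cyp2b genes (Cyp2b9, Cyp2b10 and Cyp2b13), 3 Cyp3a genes (Cyp3a11, Cyp3a13 and Cyp3a25), the haem-synthesis gene Alas1 and the electron-donor gene Por. They were 10 of the 16245 genes in the count table. Bulk liver of 18 wild-type C57BL/6 mice was sequenced to learn what GDF15, a stress-induced hormone that lowers food intake, changes in liver beyond the effect of eating less. All 18 mice had been placed on a NASH diet, rich in fat and fructose, and housed at about 29 °C from 8 weeks of age, and the methods give male mice on the C57BL/6J background, killed in the fed state. In each group there were 6 mice, which received vehicle, recombinant GDF15 under the skin once daily in the morning, or only the amount of food that GDF15-treated mice had eaten the day before (pair-fed). The labels give 0.3, 1 or 5 nmol/kg as doses of the study but not which of them a given mouse received, and the text and a legend of the study name different doses for liver sequencing. The labels do not state whether the pair-fed mice were injected.

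CAR and PXR are nuclear receptors of hepatocytes that sense drugs, bile acids and other small lipophilic molecules. Each pairs with the retinoid X receptor RXR on DNA and raises transcription of cytochrome P450 enzymes, with Cyp2b10 as the classic CAR target and Cyp3a11 as the classic PXR target in mouse liver. CAR is held in the cytoplasm by a chaperone complex until it is activated, so that the RNA level of a receptor gene is a measure of its supply and not of its activity. A P450 enzyme needs a haem group, whose synthesis starts with ALAS1, and electrons, which POR passes on from NADPH.

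Sequence just upstream of the P450 genes is shown because these genes are close relatives whose levels are set side by side below. It is RefSeq sequence of build GRCm38.p6, read 5′ to 3′ on the strand of the gene, from 250 to 41 bases before the annotated start, except for Cyp3a11, where the run ends 111 bases before the RefSeq start because a longer annotated transcript begins there. Capitals mark AGGTCA, the hexamer that CAR, PXR and many other nuclear receptors bind as one arm of a paired motif, or its complement TGACCT, and the variant TGAACT or its complement AGTTCA. The Cyp2b windows lie on the plus strand at chr7:26173159-26173368 (Cyp2b9), chr7:25897408-25897617 (Cyp2b10) and chr7:26061245-26061454 (Cyp2b13). The Cyp3a windows lie on the minus strand at chr5:145879965-145880104 (Cyp3a11), chr5:137921660-137921869 (Cyp3a13) and chr5:146009659-146009868 (Cyp3a25).
Cyp2b9: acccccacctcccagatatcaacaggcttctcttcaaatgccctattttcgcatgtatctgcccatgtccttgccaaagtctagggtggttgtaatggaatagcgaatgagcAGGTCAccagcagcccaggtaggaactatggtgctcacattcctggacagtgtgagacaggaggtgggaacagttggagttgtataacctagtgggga
Cyp2b13: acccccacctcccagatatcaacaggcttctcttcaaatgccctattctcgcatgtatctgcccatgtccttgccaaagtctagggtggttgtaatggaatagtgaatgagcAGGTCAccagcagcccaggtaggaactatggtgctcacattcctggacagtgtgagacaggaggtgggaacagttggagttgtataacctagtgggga
Cyp2b10: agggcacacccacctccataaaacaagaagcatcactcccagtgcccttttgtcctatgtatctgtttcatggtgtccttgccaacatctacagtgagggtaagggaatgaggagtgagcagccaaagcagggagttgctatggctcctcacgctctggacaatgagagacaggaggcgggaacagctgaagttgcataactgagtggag
Cyp3a11: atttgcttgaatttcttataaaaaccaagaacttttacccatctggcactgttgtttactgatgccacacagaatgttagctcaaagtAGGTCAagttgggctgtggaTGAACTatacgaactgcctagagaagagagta
Cyp3a25: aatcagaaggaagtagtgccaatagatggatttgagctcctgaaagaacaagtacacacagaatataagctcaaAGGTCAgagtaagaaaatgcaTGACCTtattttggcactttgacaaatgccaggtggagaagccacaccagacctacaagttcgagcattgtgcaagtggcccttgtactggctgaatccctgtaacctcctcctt
Cyp3a13: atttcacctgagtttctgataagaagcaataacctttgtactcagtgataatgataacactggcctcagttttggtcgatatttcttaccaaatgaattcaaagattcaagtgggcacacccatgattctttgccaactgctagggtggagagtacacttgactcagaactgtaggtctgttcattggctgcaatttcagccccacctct

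The Cyp2b9 and Cyp2b13 windows were identical at 208 of 210 aligned positions (99.0%), and both held AGGTCA 138 bases before the start. The Cyp2b10 window was 70.0% identical to either of them and held none of these hexamers. In Cyp3a11, AGGTCA stood 162 and TGAACT 142 bases before the start. Cyp3a25 held AGGTCA at 176 and TGACCT at 155 bases, and Cyp3a13 held none. Read on both strands over the same window, AGGTCA was present in 11.9% of 27025 RefSeq promoters and TGAACT in 10.4%, so that the single hexamers are common. The paired forms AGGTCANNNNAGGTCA and TGAACTNNNNNNAGGTCA, searched on both strands, were present in 2 promoters (0.0074%) and in 0 promoters, and in none of the 10 genes, all of which matched an entry in the promoter table. Only exact letters were matched, and paired forms with a mismatch were not searched. With so few exact matches anywhere, their absence from the 10 genes does not show that paired sites are absent there. The known phenobarbital-responsive enhancer of Cyp2b10 lies farther upstream and is not covered by the window.

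Total counts ranged from 16508864 to 35301853 over the 18 libraries, and the 3 largest were pair-fed replicates 4 to 6, at 25047723 or more. Hepatocyte markers were high and present in every library. Their summed normalized count was 1941480 to 2280560 with GDF15, 1367550 to 1753330 with vehicle and 1233470 to 1955790 with pair-feeding, and 4 of the 5 markers rose with GDF15 in both comparisons. Markers of other cells fell in part against vehicle, with 4 of 6 macrophage, 3 of 6 leukocyte, 6 of 6 stellate cell and 5 of 5 cholangiocyte markers lower, 0 of them higher, and 1 of 5 endothelial markers (Clec4g) higher. Against pair-fed mice 3 of 6 macrophage, 3 of 6 leukocyte, 5 of 6 stellate cell and 1 of 5 cholangiocyte markers were lower. There 0 of these and of the endothelial markers were higher. Over all genes tested, 15.8% were higher and 17.5% lower against vehicle, and 13.3% and 13.8% against pair-fed mice. No marker was at 0 in any library. When library totals replaced median-of-ratios size factors, a choice made after seeing the data, the median log2 fold change of all genes moved by -0.17 against vehicle and by -0.16 against pair-fed mice, and 2323 higher and 2562 lower genes against vehicle became 722 and 4946. In bulk tissue, fewer cells of a type and less RNA per cell cannot be told apart, and the part of these shifts in the values below was not tested.

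GDF15 was accompanied by higher levels of some of the 10 genes and a lower level of 1 (DESeq2, adjusted p under 0.05 over all genes tested). Against vehicle, Nr1i2, Nr1i3, Cyp2b10, Cyp3a13 and Por rose, Cyp3a11 fell, and Cyp2b9, Cyp2b13, Cyp3a25 and Alas1 did not pass the test. These 6 of 10 stood beside 33.3% of all 14667 genes tested, with 5 higher beside 15.8% and 1 lower beside 17.5%. Against pair-fed mice, 2 of 10 passed, Cyp2b10 and Cyp3a13, both higher, beside 27.1% of 14353 genes in either direction and 13.3% higher, so that the count of the members was near the background. With a log2 fold change above 1 required as well, 1 of 10 genes, Cyp2b10, passed in each comparison and was higher, beside 6.27% of all genes against vehicle (0.9% higher) and 3.37% against pair-fed mice (0.627% higher). Between pair-fed and vehicle mice 0 of 10 genes passed in DESeq2, beside 0.0% of 16242 genes, and 0 of 10 were without overlap, beside 0.209%. Of the 10 genes, 0 had an unadjusted p under 0.05 there, and edgeR's quasi-likelihood test also called 0, with 0 at an unadjusted p under 0.05. Both GDF15 comparisons use the same 6 GDF15 samples, so they are not independent of each other.

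**Figure D1:**
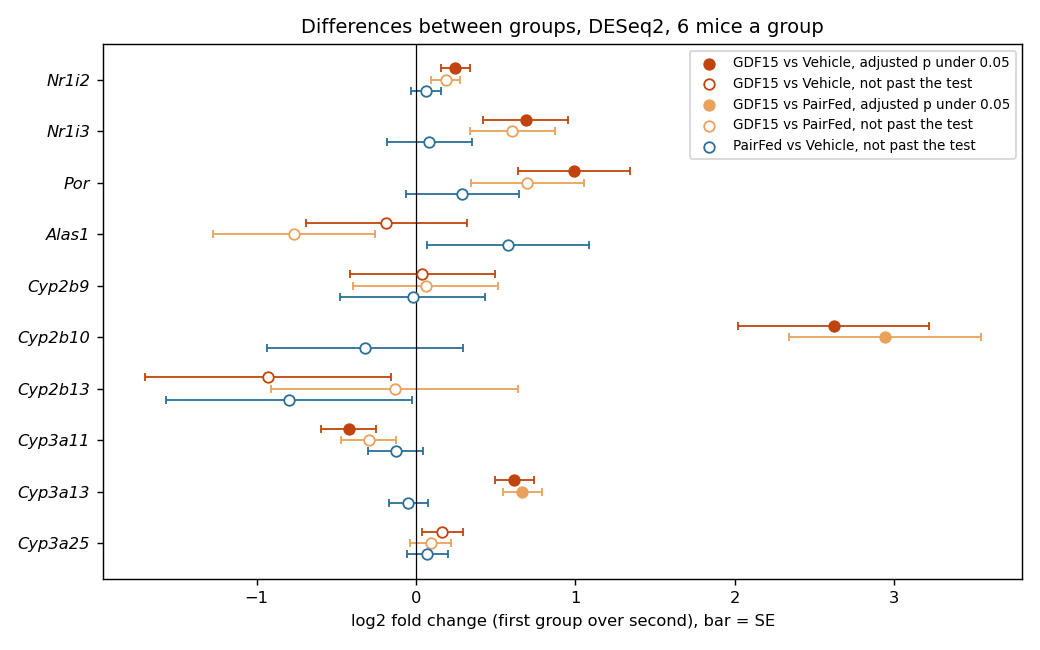
Log2 fold changes of the 10 genes (x axis, bars are SE) in the 3 comparisons, with 6 mice a group and filled points where the DESeq2 adjusted p was under 0.05. Cyp2b10 lies farthest from 0, at 2.62 against vehicle and 2.94 against pair-fed mice. The only filled point below 0 is Cyp3a11 against vehicle, and no pair-fed against vehicle point is filled.

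Both receptor RNAs rose against vehicle, and neither passed against pair-fed mice. Nr1i3 (chr1:171213970-171220701, plus strand, GRCm38) had normalized counts of 3849 (lowest), 4893 (median) and 6265 (highest) in vehicle mice, 4563, 7652 and 13211 in GDF15 mice, and 3005, 5409 and 7922 in pair-fed mice. The groups overlapped, with 4 of 6 GDF15 values above every vehicle value and 3 of 6 above every pair-fed value. Nr1i3 rose 1.61-fold against vehicle (by 0.69 on the log2 scale with an SE of 0.27, DESeq2 adjusted p = 0.0329) and was 1.52-fold higher than in pair-fed mice without passing the test (0.60 ± 0.27 log2 fold change and SE, DESeq2 adjusted p = 0.0755). The gene overlaps Tomm40l on the opposite strand, and the sources used here do not say whether counting used strand. The call against vehicle was lost when any 1 of vehicle replicates 1, 2 and 3 or GDF15 replicates 1, 2 and 3 was left out (DESeq2 adjusted p 0.055 to 0.0836), and the difference from pair-fed mice passed without pair-fed replicate 4 (0.76, DESeq2 adjusted p = 0.0198) or without GDF15 replicate 4 (0.72, DESeq2 adjusted p = 0.0252). With library totals as size factors the rise against vehicle was 0.53 (DESeq2 adjusted p = 0.0982).

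Nr1i2 (chr16:38248323-38294824, minus strand), which encodes PXR, had the smallest spread over the 18 livers of the 9 genes for which it was computed (root mean square 0.18 on the log2 scale). It was measured at 1501, 1771 and 2020 with vehicle, at 1913, 2090 and 2386 under GDF15 and at 1535, 1799 and 2319 with pair-feeding (lowest, median and highest normalized count). Of the GDF15 values, 3 of 6 lay above all vehicle values and 1 of 6 above all pair-fed values. Nr1i2 rose 1.19-fold against vehicle (0.25 ± 0.09, DESeq2 adjusted p = 0.0267) and was 1.14-fold higher than in pair-fed mice (0.19 ± 0.09, DESeq2 adjusted p = 0.122). The rise of 0.25 stood beside a median shift of -0.17 over all genes between scalings. With library totals it was 0.07 (DESeq2 adjusted p = 0.605), and it lost significance without any 1 of vehicle replicates 3, 4 and 5 or GDF15 replicates 1, 2 and 4 (DESeq2 adjusted p 0.0512 to 0.0832). Without pair-fed replicate 4, Nr1i2 was higher in GDF15 than in pair-fed mice (0.26, DESeq2 adjusted p = 0.00646).

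**Figure D2:**
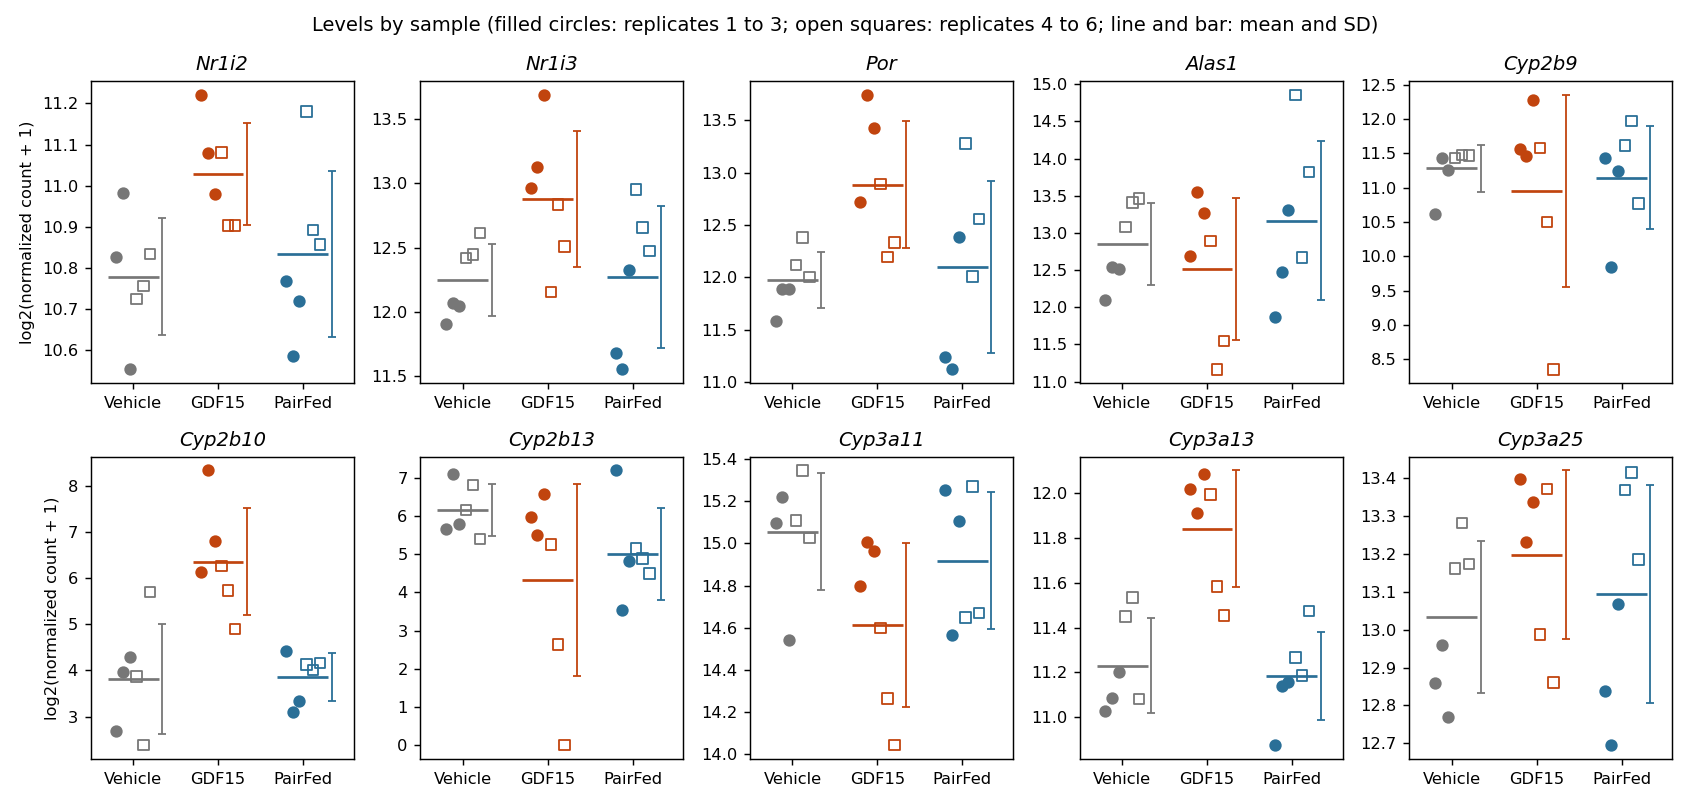
Each panel plots 1 gene as log2(normalized count + 1) in the 18 livers, by group, with filled circles for replicates 1 to 3, open squares for replicates 4 to 6, and a line and bar for the mean and SD of the 6 values. Cyp2b10 values with GDF15 (28.9 to 322.3 normalized counts) all lie above the pair-fed values (7.47 to 20.5), while the Cyp2b9 and Alas1 values of the 3 groups overlap.

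Of the 3 Cyp2b genes, neighbours on chromosome 7, Cyp2b10 rose and the other 2 did not pass the test. Cyp2b10 (chr7:25897620-25926624) had normalized counts of 4.24, 14.1 and 51.1 in vehicle mice, 28.9, 72.6 and 322.3 in GDF15 mice, and 7.47, 15.8 and 20.5 in pair-fed mice (lowest, median and highest). All 6 GDF15 values were above all 6 pair-fed values, and 5 of 6 were above all vehicle values, the exception being GDF15 replicate 6 at 28.9 below vehicle replicate 6 at 51.1. Genes without overlap between groups were 1 of 10 against pair-fed mice, beside 10.1% of all genes (4.86% higher), and 0 of 10 against vehicle, beside 12.7%. Cyp2b10 rose 6.16-fold against vehicle (2.62 ± 0.60, 95% interval 1.45 to 3.80, DESeq2 adjusted p = 0.000128) and 7.69-fold against pair-fed mice (2.94 ± 0.60, 1.77 to 4.12, DESeq2 adjusted p = 2.09e-05). It passed in each of the 18 fits that left out 1 library, in both comparisons. The fits without a library of the third group hardly moved the estimate (2.622 to 2.623 against vehicle without a pair-fed replicate). The size depended on single livers, falling to 1.92 without GDF15 replicate 2 (DESeq2 adjusted p = 0.00042) and reaching 3.29 without vehicle replicate 6 (DESeq2 adjusted p = 6.48e-09), and against pair-fed mice it was 2.23 without GDF15 replicate 2.

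Cyp2b9 (chr7:26173411-26210661) and Cyp2b13 (chr7:26061497-26096197), known as genes with more RNA in female than in male liver, did not pass the test. Cyp2b9 was measured at 1561, 2765 and 2841 with vehicle, 325.4, 2922 and 4980 under GDF15, and 917.2, 2595 and 4014 with pair-feeding. Of the GDF15 values 3 were above and 2 below all vehicle values, and of the pair-fed values 2 were above and 1 below. The log2 fold change was 0.04 ± 0.45 against vehicle (95% interval -0.85 to 0.93, DESeq2 adjusted p = 0.959) and 0.06 ± 0.45 against pair-fed mice (-0.83 to 0.95, DESeq2 adjusted p = 0.939), so that a change of nearly 1 on the log2 scale either way lay inside the interval.

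Cyp2b13 had low counts, at 41.1, 62.6 and 137.5 with vehicle, 0, 40.8 and 95.2 under GDF15 and 10.7, 27.9 and 145.4 with pair-feeding. The groups overlapped, and the value of 0 in GDF15 replicate 6 allows up to 3 counts, or 3.62 normalized counts, from counting error only. Its log2 fold change was -0.93 ± 0.77 against vehicle (DESeq2 adjusted p = 0.374) and -0.13 ± 0.78 against pair-fed mice (DESeq2 adjusted p = 0.923), where leaving out 1 library moved it between -0.58 and 0.73. Of the 50-base windows of its longest transcript, 27.3% occur in another gene as well, against 11.2% for Cyp2b9 and 9.69% for Cyp2b10, so that Salmon could have divided reads between such genes. Gm45225, which is no member, holds the largest part of the windows that Cyp2b13 shares (13.8% of all its windows).

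The Cyp2b RNA pool was nearly all Cyp2b9 in every group. The summed Cyp2b count was 2632 ± 523 with vehicle, 2760 ± 1658 under GDF15 and 2560 ± 1098 with pair-feeding (mean ± SD, n = 6), differences well inside the spread whose sign turned between scalings (log2 ratio of GDF15 to vehicle 0.07, and -0.09 with library totals). Cyp2b10 made up 0.656% ± 0.568 of that pool with vehicle, 4.74% ± 3.49 under GDF15 and 0.617% ± 0.236 with pair-feeding. The median shares were 0.488%, 2.92% and 0.608%. A share also rises where Cyp2b9 is low, as in GDF15 replicate 6, with 325.4 counts of Cyp2b9 and the lowest GDF15 count of Cyp2b10 (28.9). Per kilobase of longest coding transcript, the mean normalized count with GDF15 was 57.3 for Cyp2b10 and 1391 for Cyp2b9, so that Cyp2b10 remained the scarcer RNA. Cyp2b19, a Cyp2b gene of skin, was near 0 (mean normalized count 0.432).

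Of the 3 Cyp3a genes, Cyp3a11 fell and Cyp3a13 rose against vehicle. Cyp3a11 (chr5:145854426-145879964, minus strand), the most abundant of the 10 genes per kilobase, had normalized counts of 23840, 35174 and 41641 in vehicle mice, 16889, 26630 and 32905 in GDF15 mice, and 24241, 30662 and 39513 in pair-fed mice. The groups overlapped, and 2 of 6 GDF15 values were below all vehicle and all pair-fed values. Cyp3a11 fell by 0.42 ± 0.17 on the log2 scale against vehicle (a level 0.746 times that of vehicle, DESeq2 adjusted p = 0.0458) and differed from pair-fed mice by -0.29 ± 0.17 (95% interval -0.63 to 0.04, DESeq2 adjusted p = 0.203). The fall was close to the threshold. It did not pass in edgeR (adjusted p = 0.0617), without independent filtering (DESeq2 adjusted p = 0.0506), or in 9 of the 18 fits that left out 1 library, those without vehicle replicates 1, 2, 4, 5 or 6, GDF15 replicates 4, 5 or 6, or pair-fed replicate 3 (DESeq2 adjusted p 0.052 to 0.126). With library totals the difference from pair-fed mice also passed (-0.46, DESeq2 adjusted p = 0.0403).

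Cyp3a13 (chr5:137892932-137921619, minus strand), a Cyp3a gene set apart from the main cluster on chromosome 5, was measured at 2084, 2265 and 2964 with vehicle, 2806, 3971 and 4353 under GDF15, and 1877, 2307 and 2846 with pair-feeding. In both comparisons 5 of 6 GDF15 values lay above all values of the other group, and GDF15 replicate 6 was the one that did not. Cyp3a13 rose 1.54-fold against vehicle (0.62 ± 0.12, 95% interval 0.38 to 0.86, DESeq2 adjusted p = 8.8e-06) and 1.59-fold against pair-fed mice (0.67 ± 0.12, 0.43 to 0.91, DESeq2 adjusted p = 2.06e-06). It passed in all 18 fits without 1 library, in both comparisons, though fits without a library of the third group hardly test a comparison. Cyp3a13 shared 0.0% of its 50-base windows with other genes.

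Cyp3a25 (chr5:145977194-146009618, minus strand) had values of 6988, 8557 and 9952 with vehicle, 7438, 9974 and 10777 under GDF15, and 6632, 8941 and 10914 with pair-feeding. The groups overlapped, and the differences of 0.17 ± 0.13 from vehicle (95% interval -0.09 to 0.42, DESeq2 adjusted p = 0.341) and 0.09 ± 0.13 from pair-fed mice (DESeq2 adjusted p = 0.64) did not pass. Cyp3a25 shares 25.0% of its 50-base windows with Cyp3a59, so its reads and those of Cyp3a59 may have been divided between them.

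The shares of the 3 genes in the Cyp3a pool are given as a description, with no test. Cyp3a11 made up 75.1% ± 2.69 of summed Cyp3a counts with vehicle, 65.0% ± 4.28 with GDF15 (highest 70.4%, below all vehicle shares) and 72.6% ± 5.48 with pair-feeding (lowest 65.3%). The share of Cyp3a13 was 5.36% ± 0.971, 9.55% ± 0.935 and 5.59% ± 1.41, and all GDF15 shares (lowest 8.25%) lay above those of vehicle (highest 7.04%) and pair-fed mice (highest 7.36%). The share of Cyp3a25 was 18.6% ± 1.93, 24.6% ± 4.14 and 20.8% ± 4.18, with overlap between all groups. The summed Cyp3a count was 45895 ± 7122 with vehicle, 39337 ± 7943 under GDF15 and 43302 ± 7403 with pair-feeding, overlapping ranges for which no test was run.

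Of 6 further Cyp3a genes in the table, 1 fell, 1 rose and 4 did not pass or had no adjusted p. Cyp3a57 fell from 8.34 normalized counts with vehicle to 0.892 with GDF15 (DESeq2 adjusted p = 0.000236) and was 10.01 in pair-fed mice (DESeq2 adjusted p = 7.88e-05), without overlap, but the GDF15 values were all below the floor of 3 counts, so no fold change is given. Cyp3a44 rose from 3.02 to 10.99 against vehicle (DESeq2 adjusted p = 0.028), with 34.7 in GDF15 replicate 4 and 1.2 in replicate 6. It did not pass against pair-fed mice (DESeq2 adjusted p = 0.086). Vehicle replicates 1, 3 and 4, at 0, 2.3 and 0.8, lay below the floor, so no fold change is given for Cyp3a44 either. Of its 50-base windows, 26.5% occur in other genes. Cyp3a59, at 453.7 with vehicle and 331.4 with GDF15, did not pass (-0.45 ± 0.21, DESeq2 adjusted p = 0.0875) but did with library totals (-0.62, DESeq2 adjusted p = 0.0136). Cyp3a41a had 6.12 counts under GDF15 and 5.23 with vehicle, and Cyp3a16 and Cyp3a41b averaged under 1 normalized count.

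Por and Alas1, which supply electrons and haem to the enzymes, varied widely between livers. Por (chr5:135670033-135735326, plus strand) had normalized counts of 3079, 3954 and 5335 in vehicle mice, 4688, 7172 and 13690 in GDF15 mice, and 2230, 4743 and 9913 in pair-fed mice. With GDF15, 4 of 6 values lay above all vehicle values and 2 of 6 above all pair-fed values. Por rose 1.99-fold against vehicle (0.99 ± 0.35, DESeq2 adjusted p = 0.0193) and was 1.62-fold higher than in pair-fed mice without passing (0.70 ± 0.35, DESeq2 adjusted p = 0.129). The call against vehicle was lost without GDF15 replicate 2 (0.78, DESeq2 adjusted p = 0.0776), GDF15 replicate 3 (0.89, DESeq2 adjusted p = 0.0621) or vehicle replicate 1 (0.92, DESeq2 adjusted p = 0.0534), and without pair-fed replicate 4 the difference from pair-fed mice passed (1.01, DESeq2 adjusted p = 0.00727).

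Alas1 (chr9:106233455-106248654, minus strand), the rate-limiting enzyme of haem synthesis, was measured at 4368, 7317 and 11284 with vehicle, 2290, 7092 and 12041 under GDF15, and 3754, 8305 and 29705 with pair-feeding. The GDF15 values lay on both sides of the vehicle values, 1 above and 2 below all of them. Its log2 fold change was -0.19 ± 0.51 against vehicle (95% interval -1.18 to 0.81, DESeq2 adjusted p = 0.815) and -0.76 ± 0.51 against pair-fed mice (-1.76 to 0.23, DESeq2 adjusted p = 0.271), or -0.23 (DESeq2 adjusted p = 0.733) without pair-fed replicate 4, the liver at 29705.

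Among the GDF15 livers, the lowest value of each of the 10 genes fell in replicates 4 to 6 and the highest in replicates 1 to 3. No share over all genes was set beside the tallies below. GDF15 replicate 6 had the lowest GDF15 value for 6 of the 10 genes, replicate 5 for 3 and replicate 4 for 1. The highest value belonged to replicate 2 for 4 genes, to replicate 3 for 4 and to replicate 1 for 2. In the other groups, pair-fed replicate 2 was lowest for 8 genes and pair-fed replicate 4 highest for 4.

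The comparisons were also made within replicates 1 to 3 and within replicates 4 to 6. The labels name no batch and do not say what the numbers stand for, and the test of the difference between the sets was added after seeing the data, on the same livers, so it describes them and is not independent support. Against vehicle, 5 of the 10 genes rose in replicates 1 to 3 (Nr1i3, Cyp2b10, Cyp3a13, Cyp3a25 and Por) and 0 fell, beside 10.3% of 13710 genes higher and 11.6% lower. In replicates 4 to 6, 0 rose and 1, Cyp3a11, fell, beside 8.68% of 13704 genes higher and 10.2% lower. Against pair-fed mice, 6 genes rose in replicates 1 to 3 (the same 5 and Nr1i2) and 0 fell, beside 11.6% of 13081 genes higher and 11.5% lower. In replicates 4 to 6, Cyp2b10 rose and Cyp3a11 and Alas1 fell, beside 8.31% of 13075 genes higher and 8.41% lower.

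Nr1i3 had unlike levels in the 2 sets in each group. With GDF15 it averaged 10053 ± 2778 (SD, n = 3) in replicates 1 to 3 and 5902 ± 1378 in replicates 4 to 6, whereas with vehicle it was the other way round, at 4128 ± 246 and 5773 ± 430, and with pair-feeding too, at 3807 ± 1153 and 6687 ± 1135, in each case without overlap. The log2 fold change against vehicle was 1.29 ± 0.21 in replicates 1 to 3 and 0.03 ± 0.17 in replicates 4 to 6, a difference of -1.25 ± 0.30 (DESeq2 interaction, adjusted p = 0.00742). Against pair-fed mice it was 1.40 ± 0.21 and -0.17 ± 0.17, a difference of -1.58 ± 0.30 (DESeq2 interaction, adjusted p = 5.28e-05). These differences stood beside 1.66% of all genes that differed between the sets against vehicle and 8.81% against pair-fed mice.

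Against pair-fed mice the effects on Por, Alas1 and Cyp3a25 also differed between the sets. Por was higher by 1.65 ± 0.43 in replicates 1 to 3 and by -0.19 ± 0.36 in replicates 4 to 6 (difference -1.85 ± 0.56, DESeq2 adjusted p = 0.0203). Alas1 differed by 0.55 ± 0.41 and -1.97 ± 0.66 (difference -2.52 ± 0.78, DESeq2 adjusted p = 0.0222). Cyp3a25 differed by 0.45 ± 0.11 and -0.23 ± 0.13 (difference -0.68 ± 0.17, DESeq2 adjusted p = 0.00406). Against vehicle these 3 differences did not pass (DESeq2 adjusted p = 0.273, 0.149 and 0.0556).

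Cyp2b10 and Cyp3a13 rose against vehicle in replicates 1 to 3 and did not pass in replicates 4 to 6. Cyp2b10 was 3.72 ± 0.59 above vehicle in replicates 1 to 3 (DESeq2 adjusted p = 4.01e-08) and 1.20 ± 0.64 in replicates 4 to 6 (DESeq2 adjusted p = 0.191), and 3.76 and 1.70 above pair-fed mice (DESeq2 adjusted p = 3.07e-08 and 0.0489). Cyp3a13 was 0.91 ± 0.10 above vehicle in replicates 1 to 3 (DESeq2 adjusted p = 5.14e-16) and 0.33 ± 0.17 in replicates 4 to 6 (DESeq2 adjusted p = 0.162). Above pair-fed mice it was 0.95 ± 0.10 (DESeq2 adjusted p = 1.23e-17) and 0.39 ± 0.17 (DESeq2 adjusted p = 0.0942). Cyp3a11 was close to vehicle in replicates 1 to 3 (-0.05 ± 0.19, DESeq2 adjusted p = 0.885) and lower in replicates 4 to 6 (-0.85 ± 0.19, DESeq2 adjusted p = 0.000187). None of these 3 genes passed the test of the difference between the sets in either comparison. For Cyp2b10 the DESeq2 adjusted p was 0.162 against pair-fed mice, and none was assigned against vehicle, where the DESeq2 p was 0.00825. For Cyp3a13 the DESeq2 adjusted p was 0.117 against vehicle and 0.0565 against pair-fed mice, close to the threshold. For Cyp3a11 the DESeq2 adjusted p was 0.148 and 0.309. GDF15 libraries held 21050932 to 25001486 counts in replicates 1 to 3 and 16508864 to 19108435 in replicates 4 to 6, and pair-fed libraries 17180057 to 17926397 and 25047723 to 35301853, and the part of depth in these differences was not tested.

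**Figure D3:**
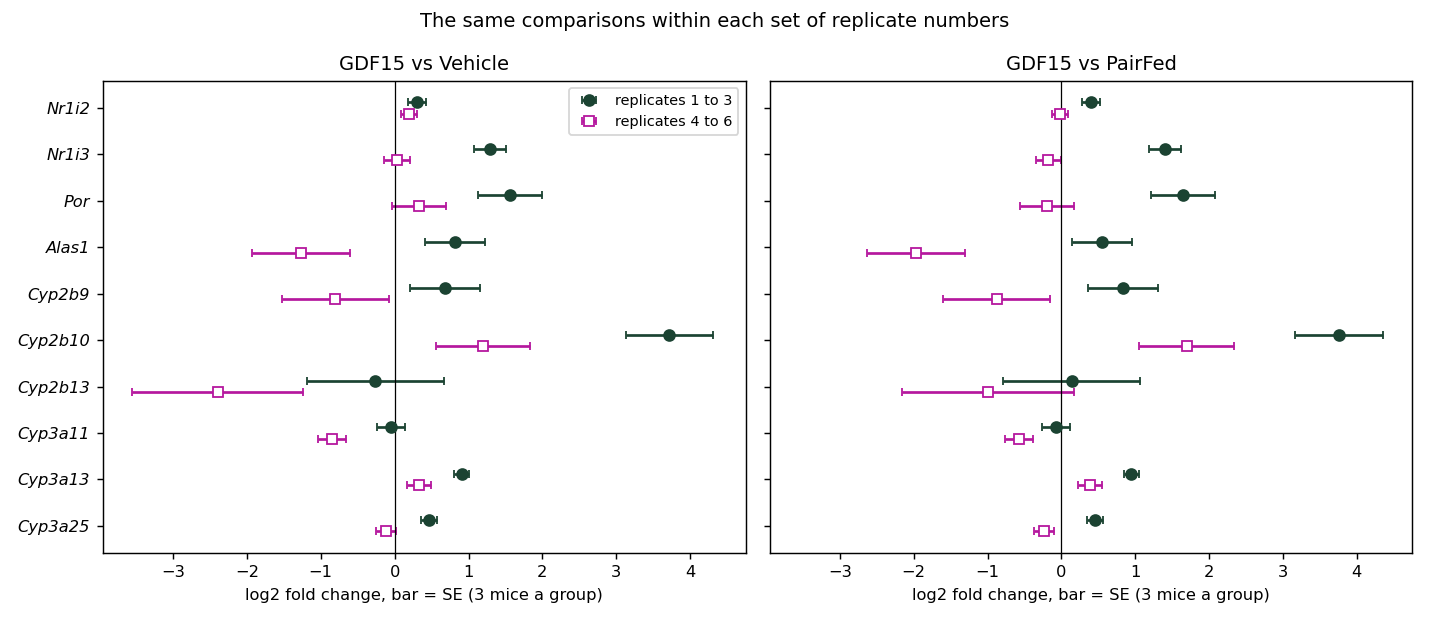
Log2 fold changes of the 10 genes (x axis, bars are SE) against vehicle (left) and pair-fed mice (right), computed within replicates 1 to 3 (filled circles) and within replicates 4 to 6 (open squares), 3 mice a group. Nr1i3 lies at 1.29 and 1.40 in the first set and at 0.03 and -0.17 in the second, and in both panels the first set lies to the right of the second for each of the 10 genes. No share over all genes was set beside this tally, and both panels use the same GDF15 livers. Against vehicle, only the difference for Nr1i3 passed the test between the sets.

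Partners of the receptors were higher where they passed. The list counts here and below stand beside 15.8% higher and 17.5% lower of all genes tested against vehicle. Against pair-fed mice these shares were 13.3% and 13.8%. Of 14 partner and coregulator genes, 5 rose and 0 fell in both GDF15 comparisons (median log2 fold change 0.17 against vehicle, beside -0.0020 over all genes), but with library totals 2 rose and 1 fell against vehicle and 1 rose and 2 fell against pair-fed mice. Rxra, an RXR gene, rose by 0.42 ± 0.12 against vehicle (DESeq2 adjusted p = 0.00188), Rxrb by 0.26 ± 0.05 (DESeq2 adjusted p = 7.08e-06, but 0.09 with an adjusted p of 0.218 with library totals), and the coactivator gene Ppargc1a by 0.77 ± 0.23 (DESeq2 adjusted p = 0.0044). Of 11 transcription factors that act on the receptor genes or share their targets, 4 rose and 0 fell (1 and 0 with library totals). An adjusted p was assigned to 10 of the 11. Hnf4a, a master regulator of hepatocytes, rose by 0.54 ± 0.06 against vehicle (DESeq2 adjusted p = 3.93e-15) and 0.52 ± 0.06 against pair-fed mice (DESeq2 adjusted p = 7.67e-14), with all 6 GDF15 values above the other 12. Nr1h3, which encodes LXRα, rose by 0.23 ± 0.05 against vehicle (DESeq2 adjusted p = 4.56e-05), but did not pass with library totals.

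Other genes reported as CAR or PXR targets moved in both directions. Of 32 in the table, 12 rose and 9 fell against vehicle, and 9 rose and 8 fell against pair-fed mice, with a median log2 fold change of 0.02 in either comparison, beside -0.0020 and -0.0054 over all genes. With library totals the split was 8 higher and 11 lower against vehicle, and 8 and 13 against pair-fed mice. Cyp2c54 rose by 2.70 ± 0.54 against vehicle (DESeq2 adjusted p = 9.59e-06) and Cyp2c37 by 1.74 ± 0.32 (DESeq2 adjusted p = 7.42e-07), both P450 genes and both without overlap. Gstm3, a glutathione transferase gene, fell by 1.83 ± 0.36 (DESeq2 adjusted p = 8.09e-06). The Cyp2c and Gstm genes are close relatives, so the division of reads among them is uncertain.

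Named after their values were seen, Cyp2c29, a known CAR target, rose by 1.74 ± 0.22 (DESeq2 adjusted p = 2.88e-13), Cyp1a2 by 1.15 ± 0.13 (DESeq2 adjusted p = 4.85e-16) and the carboxylesterase gene Ces2a by 1.05 ± 0.17 (DESeq2 adjusted p = 8.94e-09), each with all 6 GDF15 values above both other groups. The transporter gene Abcb1a fell by 0.83 ± 0.25 (DESeq2 adjusted p = 0.00559), Abcc3 by 0.49 ± 0.12 (DESeq2 adjusted p = 0.000375) and Ephx1, which encodes the microsomal epoxide hydrolase, by 0.60 ± 0.11 (DESeq2 adjusted p = 3.76e-07). Cyp2c55, another reported target, was at -0.08 ± 0.19 (DESeq2 adjusted p = 0.787).

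**Figure D4:**
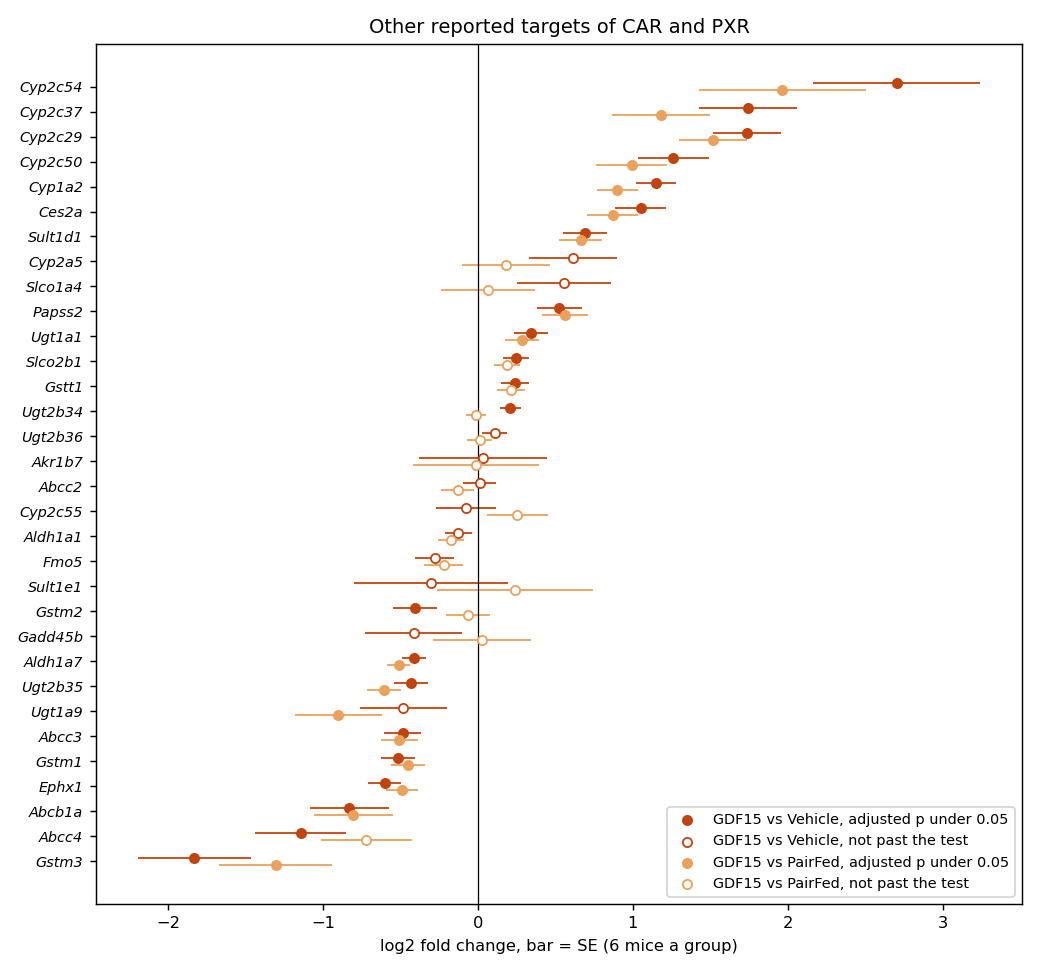
Log2 fold changes (x axis, bars are SE, 6 mice a group) of 32 other genes reported as targets of CAR or PXR, sorted by the value against vehicle, with filled points at DESeq2 adjusted p under 0.05. The genes spread from Gstm3 at -1.83 to Cyp2c54 at 2.70, with 12 filled points above 0 and 9 below against vehicle.

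Other genes of haem metabolism and of electron supply that passed had log2 fold changes nearer to 0 than that of Por. Of 14 haem genes, 6 rose and 2 fell against vehicle and 5 rose and 0 fell against pair-fed mice, a split that with library totals was 1 higher and 4 lower, and 1 and 2. Hmox1, the inducible haem oxygenase, fell by 0.64 ± 0.21 against vehicle (DESeq2 adjusted p = 0.00988) and was at -0.22 ± 0.21 against pair-fed mice (DESeq2 adjusted p = 0.462). Hmox2, the constitutive one, rose by 0.35 ± 0.05 (DESeq2 adjusted p = 1.14e-09) and Slc25a38, a mitochondrial glycine carrier, by 0.32 ± 0.08 (DESeq2 adjusted p = 0.000784), the latter not with library totals. Of 7 other electron donors and P450 partners, 1 rose against vehicle, Fdx1 by 0.27 ± 0.11 (DESeq2 adjusted p = 0.0421), and 0 passed against pair-fed mice, whereas with library totals 3 and 4 were lower and 0 higher.

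Genes nearest in pattern were sought for the 9 genes whose normalized counts averaged 50 or more, over 10882 other genes and 18 samples, as the root mean square difference of log2(normalized count + 1) after centring. The nearest to Nr1i3 was Cyp2e1 at 0.247, beside 0.518 for the spread of Nr1i3 itself, followed by Afmid at 0.255 and Abcg8 at 0.256. The nearest to Por was Tef at 0.313 (spread of Por 0.685), and the nearest to Cyp3a13 was Hrg at 0.148 (spread 0.363), before Slc39a14 and Lcat. For Cyp3a11 it was Gas8 at 0.189 (spread 0.356), before Flvcr2 and Idh2, and for Cyp3a25 Acot12 at 0.122 (spread 0.228), before Cluap1 and Creb3l3. Cyp2b13 was nearest to Cyp2a4 at 0.998 and then to Cyp2b9 at 1.07, against a spread of 1.69, followed by Trem2. Cyp2b9 was nearest to Hao2 at 0.51 (spread 0.865), then Pdzrn3 and Ildr2. Alas1 was nearest to Coq10b at 0.482 (spread 0.852), then Slc5a6 and Nrg4, and Nr1i2 to Polr2i at 0.108 (spread 0.18). These are descriptions over samples that share libraries and depth.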

How the data were processed

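Bulk liver RNA of 18 mice in 3 groups of 6, assigned by sample titles, was sequenced as 2 × 50 bp reads after a directional library kit. The authors trimmed reads with Trim Galore and quantified transcripts with Salmon (versions not given in the sources used here, build mm10 per the labels), and deposited estimated counts per gene symbol as whole numbers, not scaled for depth. Whether Salmon used strand is not stated. All 18 columns were used (16245 genes, 16508864 to 35301853 counts per library). A count of 0 allows up to 3 counts. Such floors cover counting error only, since molecules were not tagged and PCR copies count as reads.

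Counts were fitted with DESeq2 1.42.0 (R 4.3.3), all 18 samples, group as the only factor, median-of-ratios size factors and Wald tests, after the methods of the study. A gene rose or fell at a Benjamini-Hochberg adjusted p under 0.05 over the whole table, and the study's further threshold was an absolute log2 fold change above 1. Intervals are 95% Wald intervals, and fold changes were not shrunken. The procedure was tested on simulated data. Alternatives were edgeR 4.0.16 (12992 genes kept), TMM sizes, a filter of 10 counts in 6 samples, no independent filtering, 12-sample fits, the replicate number as a block, replicates 1 to 3 or 4 to 6 only, and leaving out each sample. Library totals as size factors and the interaction with the replicate set were added after seeing the data.

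The 10 genes and the lists were chosen with earlier results of these data known. Named genes were the members, other Cyp2b and Cyp3a genes, the 3 largest changes per list with a mean of at least 50 normalized counts, and the 3 genes nearest in pattern, of which some are not reported here. Genes were placed with GENCODE M21 on GRCm38, and promoters came from RefSeq. Where transcripts share sequence, Salmon divides reads among them. Each numbered sample was taken as 1 mouse, and if any shared an animal the p-values would measure technical spread.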

Additional observations from a re-analysis of the deposited data

Results flagged for a closer look

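In 4 of 30 groups of 6 values (10 genes in 3 groups) 1 liver stood apart from the other 5. The rule took the gap to the nearest value over the range, on normalized counts without logs. For normally distributed values it flags about 1 in 20 groups, or 1.5. Normalized counts need not be so distributed, so the 4 cannot be weighed against the 1.5, and the flags on a log scale were not computed. Vehicle replicate 1 had 1561 normalized counts of Cyp2b9, with the others at 2450 to 2841. Vehicle replicate 6 had 51.1 of Cyp2b10, with the others at 4.24 to 18.6, and GDF15 replicate 2 had 322.3, with the others at 28.9 to 110.6. Pair-fed replicate 1 had 145.4 of Cyp2b13, with the others at 10.7 to 34.6.

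The effect of GDF15 differed between replicates 1 to 3 and replicates 4 to 6 for 4 genes (DESeq2 interaction, log2 scale, second set minus first). Over all genes, 1.66% differed between the sets against vehicle and 8.81% against pair-fed mice. For Nr1i3 the difference was -1.25 against vehicle and -1.58 against pair-fed mice. Against pair-fed mice it was -0.68 for Cyp3a25, -2.52 for Alas1 and -1.85 for Por. The labels do not say what the replicate numbers stand for, the test was added after seeing these livers, and the cause was not tested.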

How the results depend on the processing

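The count of members past the test against vehicle, 6, became 1 when a log2 fold change above 1 was also required, 1 in replicates 4 to 6 only, and 3 to 6 when each library was left out in turn (3 without vehicle replicate 1 and without GDF15 replicate 2). Against pair-fed mice the count of 2 became 1 with the fold threshold, 6 in replicates 1 to 3 only, and 2 to 5 when each library was left out (5 without pair-fed replicate 4). Between pair-fed and vehicle mice it was 0 under all of the alternatives run. Of 810 recomputed log2 fold changes of single members, 761 kept their side of the threshold, 37 lost it, 12 gained it and 0 called values reversed. The 810 include all pair-fed against vehicle values and other values not called in the main fit, which had no call to lose. The 761 therefore does not measure how stable the calls were. Most of the 37 lost calls were those of Nr1i2, Nr1i3, Cyp3a11 and Por against vehicle. Library totals gave 4 members against vehicle (3 higher and 1 lower, in place of 5 and 1) and 3 against pair-fed mice (2 higher and 1 lower, in place of 2 and 0), and edgeR gave 5 and 2. Over all genes, library totals called 722 higher and 4946 lower against vehicle, and 626 and 4439 against pair-fed mice. In edgeR, 4501 of 12992 genes passed against vehicle and 3621 against pair-fed mice. Cyp2b10 had the largest SE of the called members. What differed between the replicate sets was not tested.

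With the replicate number as a block, 5 members passed against vehicle, Nr1i3 being lost (log2 fold change 0.70, DESeq2 adjusted p = 0.0552), 2 against pair-fed mice and 0 between pair-fed and vehicle mice. Correlations of same-numbered samples' deviations averaged -0.07 (GDF15 and vehicle), 0.03 (GDF15 and pair-fed) and 0.22 (pair-fed and vehicle), and 0, 2 and 1 of 6 samples correlated best with their own number, so the numbers were not treated as pairs, and what they stand for is not stated. Between pair-fed and vehicle mice all 6 same-number correlations were above 0 (0.05 to 0.64).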

Other observations

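Because Cyp2b9, Cyp2b13 and several Cyp3a genes are known to differ between the sexes, and CAR targets to differ along the lobule, further lists were counted in the same DESeq2 fits. Over all genes tested, 15.8% rose and 17.5% fell against vehicle, and 13.3% rose and 13.8% fell against pair-fed mice. Of 13 genes known as higher in female liver, 10 had an adjusted p. Of these, 4 rose and 0 fell against vehicle, and 2 rose against pair-fed mice. Cyp17a1, a steroid hydroxylase, rose by 0.84 ± 0.15 against vehicle (DESeq2 adjusted p = 3.63e-07) and Cyp4a14, a fatty acid hydroxylase, by 0.71 ± 0.23 (DESeq2 adjusted p = 0.00872). Of 19 genes known as higher in male liver, 9 rose and 2 fell, and 4 and 2 against pair-fed mice. Hsd3b5, a steroid dehydrogenase, rose by 5.28 ± 1.21 against vehicle (DESeq2 adjusted p = 0.000142), with 4 of 6 GDF15 livers above all vehicle livers. Its mean went from 13.2 to 513 normalized counts, but the GDF15 median was 108 and 1 liver reached 2361. Slco1a1, an organic anion carrier, rose by 3.25 ± 0.82 (DESeq2 adjusted p = 0.000568), with a GDF15 median of 1934 and a highest value of 10654. Elovl3, a fatty acid elongase, rose by 1.53 ± 0.52 (DESeq2 adjusted p = 0.0129), with 2 of 6 GDF15 livers above all vehicle livers. Against pair-fed mice Elovl3 did not pass (DESeq2 adjusted p = 0.0678). With library totals the list counts against vehicle became 3 higher and 3 lower for the female list and 6 and 2 for the male list.

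Of 10 genes known as pericentral, where CAR targets are mostly expressed, 6 rose and 1 fell in both comparisons, and of 10 known as periportal 7 rose and 2 fell in both. Against vehicle the pericentral genes Cyp2e1, the ethanol-metabolizing P450, and Rgn rose by 0.61 ± 0.17 and 0.58 ± 0.12, and the ammonium carrier gene Rhbg fell by 0.62 ± 0.14. The periportal genes Sds, Cps1 and Hal, which break down amino acids or detoxify ammonia, rose by 1.16 ± 0.16, 1.06 ± 0.15 and 1.02 ± 0.16, each without overlap with either other group. The DESeq2 adjusted p of these 6 genes against vehicle ranged from 7.33e-11 for Sds to 0.0028 for Cyp2e1. With library totals 4 pericentral genes rose and 1 fell against vehicle, and 3 rose and 2 fell against pair-fed mice, where Cyp2e1 did not pass (0.31, DESeq2 adjusted p = 0.13). The periportal counts with library totals were 7 higher and 2 lower against vehicle and 6 and 2 against pair-fed mice.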
